A study of Mus musculus with 4 samples.

Results

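The narrowest Gata6 peaks of primary mouse keratinocytes are described here: the 1106 intervals of 83 bp or less in a single overlap list, 9.11% of all its peaks. They were chosen by width alone, so every width below is a description of the choice and not a finding. The other 11031 peaks of the list (90.9%) were wider than 83 bp and serve as the comparison. The 4 ChIP-seq libraries of the series came from dorsal skin keratinocytes of C57BL6/CBA background that carried K14deltaNLef1, a truncated Lef1 under the keratin 14 promoter, and that overexpressed Gata6 after lentiviral infection. Of these, 2 were precipitated with Gata6 antibodies (one from R&D Systems, one named D61E4 from Cell Signaling), 1 with a Flag antibody from Sigma as negative control, and 1 was input DNA. All 4 shared the transgene and the added Gata6, so the list holds sites in overexpressing cells and no measure of sites bound by endogenous Gata6. One library of the Gata6 pair has its genotype spelled K14deltaNLef1N, which was taken as the same genotype. The cells grew on irradiated mouse fibroblast feeders, whose DNA belongs to the same species.

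Gata6 is a zinc-finger transcription factor that recognises a short motif around the letters GATA, and in mouse skin it is known from the sebaceous duct and the upper hair follicle. In ChIP-seq, fragments bound by a factor pile up over its site, and a peak caller turns each pile into an interval. The peaks were deposited as an overlap list. No interval in it was wider than 166 bp, and 764 had exactly that width. How its intervals were cut was not tested, so a narrow interval is not shown to be a narrow pile. The widths given here are those of the listed intervals, and the width of the binding site itself is not recorded. The list gives a position and a name for each peak, with a score of 0 throughout, so no peak height, library value or replicate spread lies behind the comparisons that follow. Intervals of shares below are 95% Wilson intervals and cover counting error only.

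Narrow peaks formed the thin tail of the width distribution. Their median width was 58 bp, with an interquartile range of 36 to 73 bp, whereas the wider peaks had a median of 146 bp (128 to 158 bp). The tail thinned steadily: 511 peaks were 61 to 83 bp wide, 267 were 41 to 60 bp, 184 were 21 to 40 bp and 144 were 1 to 20 bp. Per base pair of width this came to 22.2, 13.4, 9.20 and 7.20 peaks, against 38.0 between 84 and 100 bp and 230 between 141 and 165 bp. The limit of 83 bp lay inside this tail. Just inside it, the 22 peaks of 83 bp had a median name number of 728, and just outside it the 34 peaks of 84 bp had a median of 509. Over 4 bp on either side the medians were 621 (113 peaks of 80 to 83 bp) and 557 (146 peaks of 84 to 87 bp). The median distance to the nearest other midpoint was 8.27 kb at 83 bp and 23.0 kb at 84 bp, and 15.7 against 24.7 kb over 4 bp on either side. These values describe few peaks and were not tested.

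**Figure D1:**
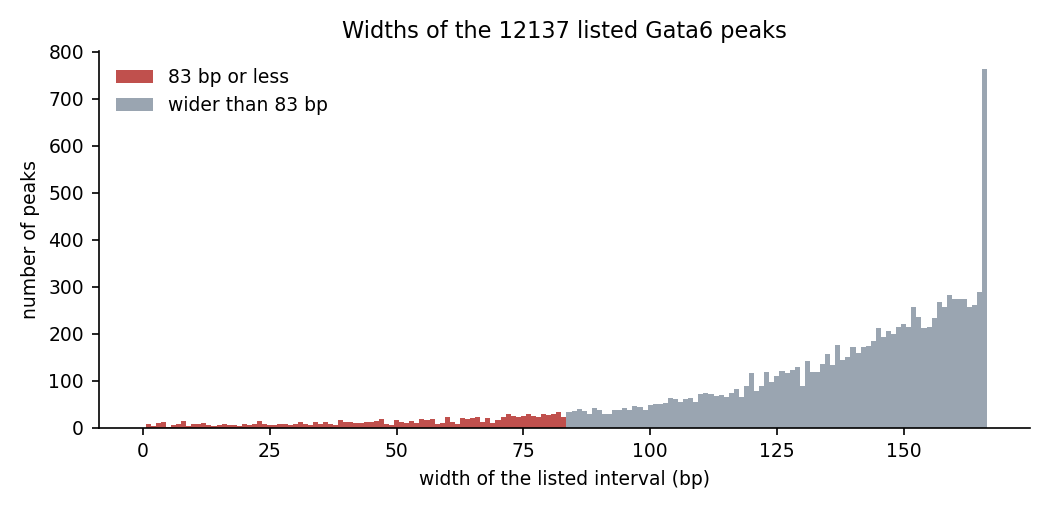
Number of listed peaks (y axis) at each width in bp (x axis), with the 1106 peaks of 83 bp or less in red and the 11031 wider peaks in grey. The narrow peaks form a continuous low tail, and the 764 peaks at the largest width of 166 bp stand above all other widths.

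The narrowest members were single bases. There were 9 intervals of 1 bp, on chromosomes 2, 3, 6, 9, 10, 16 and 18. Positions are on build mm9 and 1-based. They lay at chr2:122132194-122132194, chr3:33698992-33698992, chr6:22328581-22328581, chr9:21940407-21940407, chr10:68648857-68648857, chr10:77438506-77438506, chr16:17509006-17509006, chr18:37965893-37965893 and chr18:62890351-62890351. Their surroundings varied widely. The one on chromosome 6 had another peak 1.37 kb away and the one on chromosome 9 had one 1.62 kb away, whereas the one on chromosome 3 was 281.0 kb from its nearest peak. Of the 9 nearest peaks, the one beside chr10:68648857-68648857 was itself narrow (81 bp), and the other 8 were 107 to 164 bp wide. No gene is assigned to these or any other peaks, because the gene table used for names belongs to another build.

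Each peak name joins a chromosome to a whole number, the name number, and narrow peaks carried higher numbers. Their median name number was 689 (interquartile range 376 to 1135), against 381 (162 to 757) for wider peaks. Since chromosomes differ in how far their numbers run, numbers were also ranked within each chromosome. On that scale the median percentile was 70.4 for narrow and 47.8 for wider peaks, a difference of 22.6 percentile points. The difference was positive on 20 of 20 chromosomes, from 9.47 points on chromosome 14 to 32.0 points on chromosome 12 (SD 5.76 over chromosomes). No source used here states what the number counts. That width and number are related was known when these peaks were chosen.

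The share of narrow peaks rose over the whole range of numbers. In the lowest 10% of the numbers of a chromosome, 16 of 1206 peaks were narrow (1.33%, interval 0.818 to 2.14). In the next 10% the share was 3.04% (2.22 to 4.17), and near the middle, from the 40th to the 50th percentile, it was 9.05% (7.57 to 10.8). It reached 14.7% (12.8 to 16.8) between the 80th and 90th percentile and 19.9% (17.8 to 22.2) in the highest 10%, which alone held 243 narrow peaks, or 22.0% of them. The last step, from 14.7 to 19.9%, was the largest between neighbouring classes, and the intervals on its sides did not overlap. On raw numbers pooled over chromosomes the rise looked flatter at the top: 15.9% (13.3 to 18.9) for 1001 to 1200, 16.3% for 1501 to 2000 and 17.2% (13.9 to 21.1) for 2001 to 4055. The pooled classes mix chromosomes whose numbers end at different values.

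**Figure D2:**
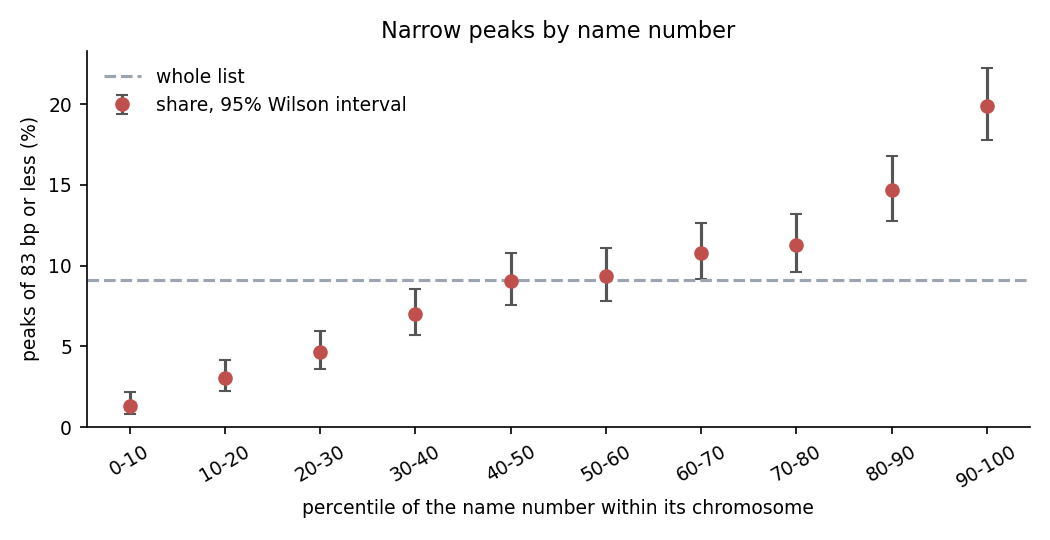
Share of peaks of 83 bp or less in percent (y axis) in classes of 10 percentile points of the name numbers of a chromosome (x axis), with points for the share, bars for its 95% Wilson interval and a dashed line for the whole list at 9.11%. The share rises from 1.33% in the lowest class to 19.9% in the highest.

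A logistic fit across all listed peaks, 1106 narrow and 11031 wider, with chromosome and distance to the nearest peak as further terms, gave an odds ratio of 1.65 per doubling of the name number (95% interval 1.55 to 1.76, with the standard error clustered by chromosome). Fitted on each chromosome alone, the odds ratio was above 1 on 20 of 20 chromosomes, from 1.32 (0.923 to 1.88) on chromosome 14, the only one whose interval reached 1, to 2.27 (1.26 to 4.08) on chromosome X. Peaks of one list are not replicates, so the interval of 1.55 to 1.76 refers to the spread over chromosomes in this list and not to repeated experiments. The intervals of single chromosomes were not clustered and treat the peaks of a chromosome as independent.

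Within the narrow peaks, width and number were only loosely related. The median percentile of the name number was 74.9 at 1 to 20 bp, 68.9 at 21 to 40 bp, 73.8 at 41 to 60 bp and 67.5 at 61 to 83 bp. Wider classes went on downwards, with 63.9 at 84 to 100 bp, 58.6 at 101 to 120 bp, 52.5 at 121 to 140 bp, 41.9 at 141 to 165 bp and 39.8 at 166 bp. Across the 1106 narrow peaks Spearman's rho of width and percentile was -0.08, a description across sites of one list. In the top 25% of numbers lay 72 of the 144 peaks of 1 to 20 bp (interval of the share 41.9 to 58.1%) and 39.3% (35.2 to 43.6) of those of 61 to 83 bp, against 18.2% (15.6 to 21.1) of the peaks of 166 bp.

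When the listed peaks of a chromosome are put in order of number, their positions climb along the chromosome, drop back and climb again. Each climb is called a series here. Series follow the order of the numbers, so any trend over them restates the relation of width and number above. There were 29 series on chromosome X, the fewest, and 86 on chromosome 6, the most. Counted back from the end, the last and second-last series were the richest in narrow peaks: 91 of 452 (20.1%, interval 16.7 to 24.1) and 118 of 535 (22.1%, 18.7 to 25.8). The third from the end had 15.2% (12.5 to 18.4), the fifth 12.3% (9.87 to 15.2) and series 10 from the end 9.36% (7.07 to 12.3). In series 41 or more from the end, on 19 chromosomes, 16 of 1148 peaks were narrow (1.39%, 0.860 to 2.25). The median width of all peaks went the opposite way to this share, from 130 bp in the last series up to 154 bp in those farthest from it. The last and second-last series did not differ beyond their intervals. Series were found from listed peaks only, so short ones may be joined where numbers are missing from the list.

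**Figure D3:**
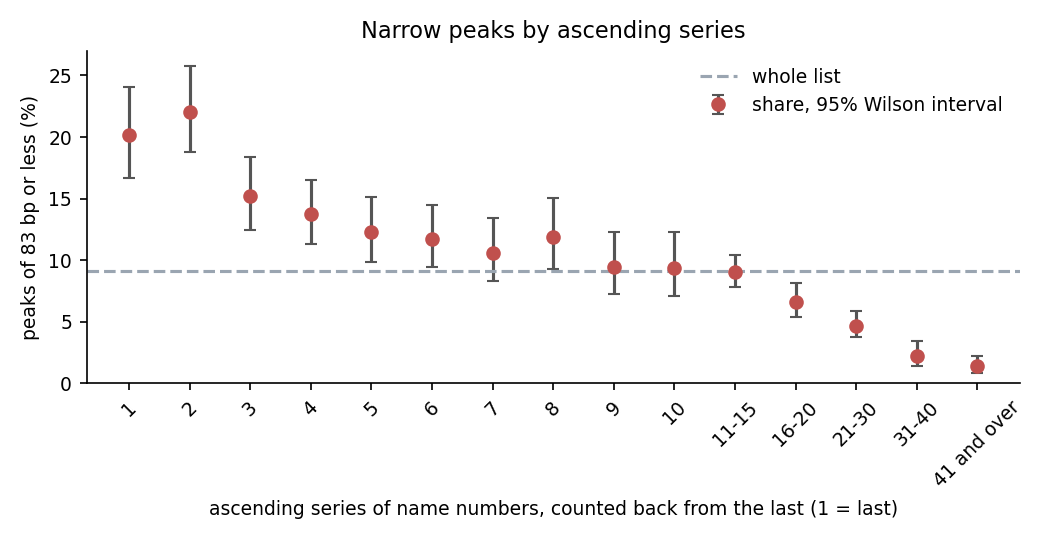
Share of peaks of 83 bp or less in percent (y axis) by ascending series of name numbers, counted back from the last series of each chromosome (x axis), with points for the share, bars for its 95% Wilson interval and a dashed line for the whole list. The last and second-last series hold 20.1 and 22.1% narrow peaks, and the series 41 or more from the end hold 1.39%.

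Few narrow peaks had low numbers. Only 12 of the 942 peaks numbered 1 to 50 were narrow. The lowest was chr4:56611772-56611846, 75 bp wide with name number 17, and its nearest peak was 9.96 kb away. It was followed by chr16:93425048-93425125 with number 24 (78 bp), chr1:78552901-78552961 with number 25 (61 bp), chr3:65729139-65729175 with number 28 (37 bp) and chr15:25374122-25374141 with number 33 (20 bp). These 5 peaks cover most of the range of narrow widths. The numbers of their nearest peaks ran from 123 beside the one on chromosome 16 to 2094 beside the one on chromosome 1. Higher numbers beside them are likely from the choice of the lowest numbers among narrow peaks, though not fixed by it.

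Narrow peaks lay about as far from other peaks as wider ones did. The median distance to the nearest other midpoint was 18.9 kb (interquartile range 5.28 to 57.8 kb) for narrow and 18.6 kb (5.63 to 56.8 kb) for wider peaks. It was shorter for narrow peaks on 13 chromosomes and longer on 7, with differences from -18.7 kb on chromosome 14 to 14.4 kb on chromosome 5. Another peak lay within 5 kb of 264 narrow peaks (23.9%, interval 21.5 to 26.5) and of 2547 wider peaks (23.1%, 22.3 to 23.9), a difference of 0.780 percentage points (Newcombe 95% interval -1.77 to 3.49). Within 1 kb the shares were 6.87% and 6.64% (difference 0.236 points, -1.19 to 1.94), and within 100 kb they were 86.5% and 85.4% (difference 1.15 points, -1.08 to 3.15). Each of these 3 intervals held 0, and each also held differences of 1 percentage point in either direction.

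At a given number the fit did give a small difference. With name number and chromosome as terms, the odds of being narrow changed by a factor of 0.908 for each 10-fold greater distance to the nearest peak (95% interval 0.837 to 0.986). Without the number in the fit the factor was 0.990 (0.908 to 1.08), and with a limit of 100 bp for narrow peaks it was 0.954 (0.903 to 1.01). Leaving out 1 chromosome at a time gave 0.878 to 0.919, with every interval below 1. The lowest value came without chromosome 11 (0.832 to 0.926), and the interval that came nearest to 1 was that without chromosome 6 (0.846 to 0.999). Neighbouring peaks share a distance, which the fit treats as separate values except through the clustering by chromosome.

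**Figure D4:**
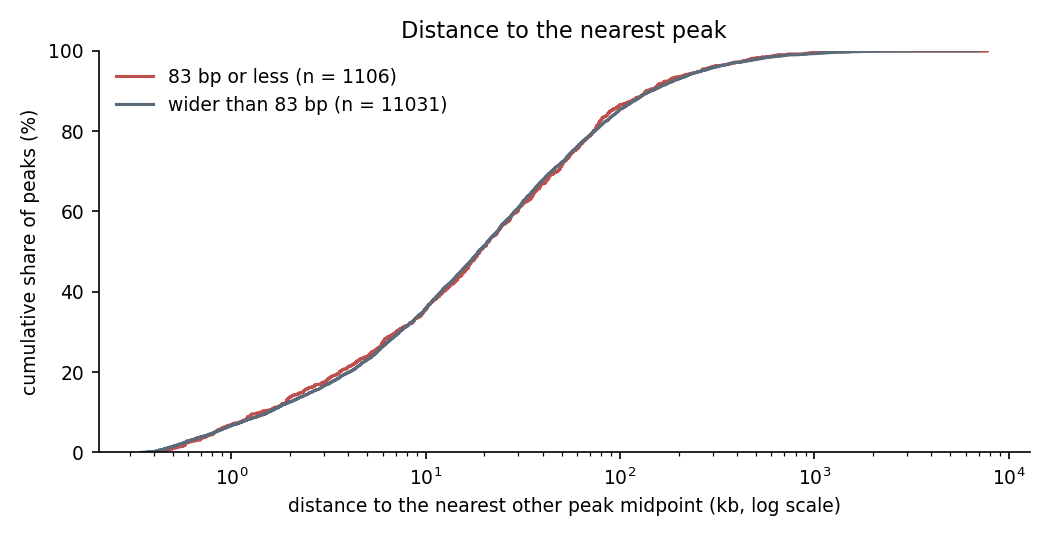
Cumulative share of peaks in percent (y axis) by distance to the nearest other peak midpoint in kb on a log scale (x axis), for the 1106 narrow peaks (red) and the 11031 wider peaks (dark grey). The curves nearly coincide, with medians of 18.9 and 18.6 kb.

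The closest and most remote members show how wide that range was. The narrow peak with the nearest neighbour was chr8:81171934-81171974 (41 bp, number 1307), 0.392 kb by midpoint from a peak of 158 bp with number 286. The most remote was chrX:82819120-82819195 (76 bp, number 269), 7763 kb from any other peak, followed by chr1:7092821-7092890 at 1765 kb, chr3:70611251-70611324 at 1366 kb, chr14:40542578-40542632 at 1123 kb and chr13:120191116-120191187 at 1015 kb. Among the 848 peaks more than 200 kb from any other, 72 were narrow (8.49%, interval 6.80 to 10.6), a share whose interval holds that of the whole list.

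Narrow peaks were not seen to lie next to other narrow peaks more often than wider ones did. The nearest peak was narrow for 94 of the 1106 narrow peaks (8.50%, interval 7.0 to 10.3) and for 1015 of the wider ones (9.20%, 8.68 to 9.76), a difference of -0.702 percentage points (-2.30 to 1.16). The nearest peak of a narrow one had a median width of 144 bp and a median percentile of number of 47.5, close to the 143 bp and 48.6 found beside wider peaks. The higher numbers of narrow peaks were not seen in the peaks beside them. Of 1503 neighbouring pairs within 5 kb, 12 joined a narrow peak to another narrow peak (0.798%), and of the 4060 pairs over 100 kb apart, 32 did (0.788%). Over all 12117 neighbouring pairs the share was 0.743%. A share this low is likely where 9.11% of peaks are narrow.

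In pairs of 1 narrow and 1 wider neighbour the narrow one usually had the higher number. This held for 1378 of 2029 such pairs (67.9%, interval 65.9 to 69.9). It held at every distance examined: for 51 of 74 pairs within 1 kb (68.9%, 57.7 to 78.3), 168 of 264 within 5 kb (63.6%, 57.7 to 69.2), 261 of 396 pairs 5 to 20 kb apart (65.9%, 61.1 to 70.4), 496 of 707 pairs 20 to 100 kb apart (70.2%, 66.7 to 73.4) and 453 of 662 pairs over 100 kb apart (68.4%, 64.8 to 71.9). The intervals overlap, but a change with distance was not tested, and the pairs within 1 kb are also counted within 5 kb. Narrow peaks had higher numbers across the whole list, with median percentiles of 70.4 against 47.8. A majority of this kind is therefore likely for any narrow and wider peak, neighbours or not. The share among pairs that are not neighbours was not computed. A peak can belong to a pair on either side, so pairs are not independent.

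The closest narrow-narrow pair was on chromosome 13, where chr13:24657449-24657464 (16 bp, number 279) lay 470 bp by midpoint from chr13:24657888-24657965 (78 bp, number 536). On chromosome 5, chr5:64503571-64503606 (36 bp) and chr5:64504080-64504155 (76 bp) were 529 bp apart, and on chromosome 13, chr13:73741364-73741423 (60 bp) and chr13:73742121-73742169 (49 bp) were 752 bp apart. These 3 were the narrow-narrow pairs within 1 kb. The next were chr19:9134726-9134806 and chr19:9135967-9135985 at 1210 bp, and a 2-bp interval, chr7:119459813-119459814, with chr7:119461233-119461303 at 1455 bp. The members of this last pair had the neighbouring numbers 1890 and 1891.

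Along the chromosomes, most narrow peaks stood alone between wider ones. That is likely for any 9.11% of a list, and no other order of the peaks was tried for comparison. Of the 1106 narrow peaks, 934 had no narrow peak next to them in order, 148 formed 74 runs of 2, and 24 formed 8 runs of 3, the longest seen. The runs of 3 lay on chromosomes 2, 8, 11, 13, 16 and 19, with a pair of runs each on chromosomes 11 and 16. The most compact was chr11:119810150-119837683, over 27.5 kb, with peaks of 43, 61 and 74 bp and numbers 1286, 600 and 716. At chr19:60938828-60991987, over 53.2 kb, the peaks measured 3, 23 and 32 bp, and at chr16:31533671-31587505, over 53.8 kb, they measured 40, 79 and 32 bp.

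In windows of 1 Mb, at most 5 narrow peaks came together. Among windows with any peak, 1096 had no narrow peak, 515 had 1, 181 had 2, 50 had 3, 16 had 4 and 3 had 5. The 3 fullest were chr2:119000001-120000000 with 5 narrow among 10 peaks, chr9:107000001-108000000 with 5 among 20 and chr10:127000001-128000000 with 5 among 22. Their narrow peaks differed in number: those on chromosome 2 were all above the 70th percentile of their chromosome (71.4 to 94.3), whereas on chromosome 9 they ranged from 24.6 to 90.3. The window on chromosome 10 included the peak with the highest number in the list, 4055, at chr10:127079945-127079972 (28 bp). Peak-rich windows were not richer in narrow peaks: the 53 windows with 20 or more peaks had 108 narrow among 1253 (8.62%, interval 7.19 to 10.3), those with 5 to 19 peaks had 9.17% (8.59 to 9.79) and those with 1 to 4 peaks had 9.15% (7.93 to 10.6).

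The chromosomes held similar shares of narrow peaks. The share ran from 6.31% (19 of 301, interval 4.08 to 9.65) on chromosome 14 and 6.57% (23 of 350, 4.42 to 9.67) on chromosome 12 to 10.6% (82 of 775, 8.61 to 12.9) on chromosome 7 and 10.8% (60 of 553, 8.52 to 13.7) on chromosome 13. On 19 of 20 chromosomes the interval held the 9.11% of the whole list. The exception was chromosome 6, with 66 of 920 (7.17%, 5.68 to 9.03). Chromosome X had 17 narrow peaks among 175 (9.71%, 6.15 to 15.0). The chromosome term of the fit passed when the name number stood in it on the log2 scale (likelihood ratio 71.8 on 19 degrees of freedom, against a 95% quantile of 30.1). This likelihood ratio was not clustered and treated the peaks as independent. The term did not pass with the number as a percentile of its chromosome (19.1) or with no number in the fit (18.7), both chosen after the data were seen. The highest number differs between chromosomes, so the log2 scale and the percentile rank peaks of different chromosomes differently. Whether this accounts for the change in the chromosome term was not tested.

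**Figure D5:**
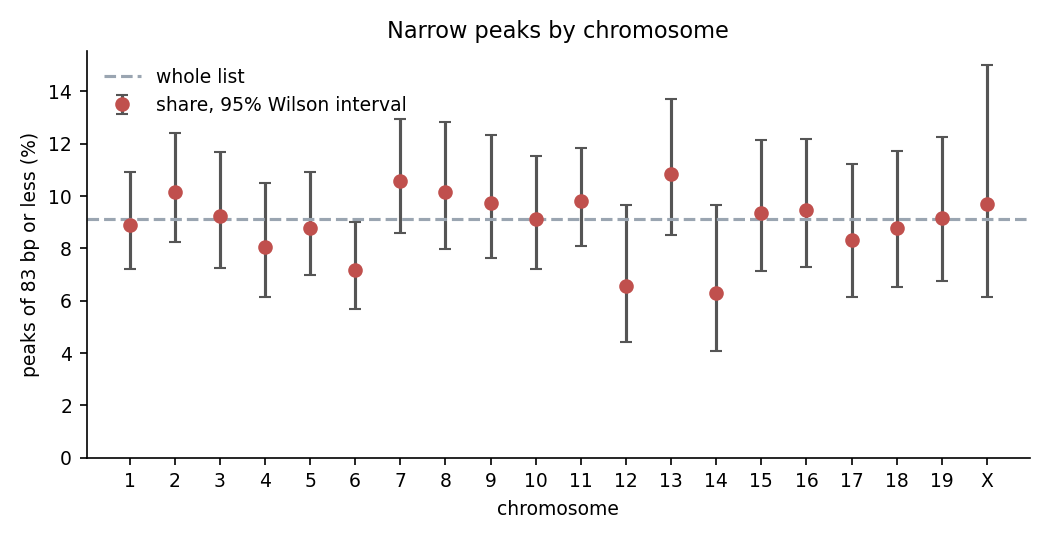
Share of peaks of 83 bp or less in percent (y axis) on each chromosome (x axis), with points for the share, bars for its 95% Wilson interval and a dashed line for the whole list at 9.11%. The bars of 19 chromosomes cross the line, and that of chromosome 6 ends just under it at 9.03%.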

How the data were processed

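Chromatin from 4 libraries was sequenced, and the data used were 1 list of overlapping peaks for the whole series. BWA, HOMER and build mm9 are named, without versions or roles, in the submitters' processing notes. Which lists were intersected, with what minimum overlap and threshold, and how the controls entered is stated in no source used here. Depth per library is unknown. The score deposited by the authors is 0 in every row and was not used. Interval starts and ends, deposited by the authors, gave widths and midpoints. Distances are between midpoints.

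The members, measures and tests were chosen with earlier results of these data known. Narrow against wider peaks were fitted by binomial regression (statsmodels 0.14.6, Python 3.11.15, pandas 2.3.3, NumPy 2.4.6) on log2 name number, log10 distance and chromosome, and 95% intervals are given. Number and distance were tested with standard errors clustered by chromosome. Chromosome was tested by a likelihood ratio without clustering, which treats peaks as independent. All 3 terms passed the threshold of 0.05 after Benjamini-Hochberg adjustment over 3 tests. The fit was run on simulated data, with each peak made narrow independently at odds set by its number alone. Dependence between peaks was therefore not checked. Regions named were, by rule, all peaks of 1 bp, the 5 lowest numbers, the 5 closest narrow pairs, the longest runs, the 5 most remote peaks and the 3 fullest 1-Mb windows. The closest single peak, the series and the mixed pairs were added after the data were seen. Sequence motifs, transcription starts and peak sequences were not analysed here, since the sequence tables used belong to another build.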

Additional observations from a re-analysis of the deposited data

How the results depend on the processing

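Of 41 alternative values for 7 results, 35 kept the direction and outcome of their test or, where there was no test, stayed within 1 SD over chromosomes or the 95% interval of the first value. Some of these still moved in size or sign. Others could hardly fail. The SD over chromosomes of the median distance difference was 7.04 kb, far above the difference itself. The model-based standard error leaves the odds ratio as it is and can change only the p-value. The count of 35 is therefore no measure of robustness. The odds ratio for the name number stayed between 1.56 and 1.74 per doubling under 6 settings, and was 1.26 per 10 percentile points. The factor for distance lost its call at 0.954 with narrow peaks of up to 100 bp and at 0.990 without the name number. The chromosome term lost its call with the number as a percentile and with no number in the fit. It kept its call under the other 4 settings, all with the number on the log2 scale. The range of shares over chromosomes, 4.54 percentage points, does not depend on the terms of the fit. The share of narrow peaks whose nearest peak was narrow, 8.50%, was 3.53% with a limit of 60 bp and 12.4% with 100 bp, where fewer or more peaks count as narrow by construction. The difference in peaks with a neighbour within 5 kb, which had no test, was 0.780 percentage points but -0.0516 points at 100 bp, and -0.153 points for neighbours within 20 kb. The median distance difference, 0.29 kb, was 1.12 kb at 100 bp, and the range of shares over chromosomes was 2.05 percentage points at 60 bp. No paired analysis was possible because the list holds no values per library, and no library could be left out for the same reason. The planned motif alternatives were not run. How library depth affected the list was not tested.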
